A study of Mus musculus with 8 samples.

Results

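Macrophage genes were examined in cultures of mouse bone marrow mesenchymal stem cells (MSCs). The 39 genes were chosen by name, as genes known from macrophages, out of 47643 named entries of the deposited expression table, and all 39 were among the 15327 genes that passed the expression filter and were tested. By their known expression, 32 of them are made mainly by blood cells and 7 (Lgals3, Hmox1, Cyba, Gpnmb, Tlr4, Tlr2 and Cd14) are also made by stromal cells.

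The MSCs came from hind leg marrow of C57BL/6 mice. By the labels, they spent 2 days under conditions that induce bone formation, with dexamethasone at 100 nM, β-glycerophosphate at 5 mM and ascorbic acid at 50 µg/ml. RNA-seq was carried out on 2 libraries of the genotype Prx1-cre;Mettl3fl/fl, where the RNA methyltransferase gene Mettl3 is deleted by a Cre recombinase that is active in limb mesenchyme and its descendants rather than in blood cells, and on 2 libraries from littermates, which the labels call wild type and the study Mettl3fl/fl without Cre. A separate m6A MeRIP-Seq experiment, in which RNA fragments with N6-methyladenosine (m6A) are recovered by an antibody, used MSCs labelled wild type (2 immunoprecipitates and 2 inputs) and was deposited as 1 list of peaks. Neither a sort for stromal cells nor the age of these mice is given in the sources used here, and nothing says that the libraries of a group came from separate mice, so p-values measure only the spread between these libraries.

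Macrophages are phagocytes of the blood lineage that take up dead cells, microbes and matrix debris. Their identity depends on the transcription factor PU.1 and on the receptor of colony stimulating factor 1, whose ligand is supplied by stromal cells. In the marrow, macrophages support red cell maturation and share precursors with osteoclasts, and they adhere to plastic, as MSCs do.

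A library held 23948219 to 34069228 counts, of which macrophage genes took 1014252 to 1344424. The level of Mettl3 did not separate the groups, with 17.6 and 16.9 CPM (counts scaled to a library of 1000000) under the control label and 17.5 and 16.3 CPM under the knockout label. The log2 fold change was −0.03 (Benjamini-Hochberg adjusted p = 0.824 in the quasi-likelihood test of edgeR), and because the counts include exons that are not deleted, they show nothing about the deletion. Groups are therefore called control-labelled and knockout-labelled, and each direction below rests on the labels. The control-labelled pair differed far more than the knockout-labelled pair, with a chi-square statistic over all genes of 32.6 and 1.82 times its degrees of freedom, where counting noise alone gives about 1. The knockout-labelled libraries thus differed by little more than counting noise, and whether they come from separate cultures is not given in the sources used here. They were kept as 2 samples after their labels and, as an alternative, summed to 1. For the macrophage genes the median absolute difference between replicates was 0.16 on the log2 scale in the control-labelled and 0.02 in the knockout-labelled pair. Over all genes tested it was 0.17 and 0.07. Control-labelled replicate 2 was the lower of its pair for 26 of the 39 genes (66.7%), and for 49.8% of all genes tested.

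RNA of the macrophage genes was abundant in the cultures. Summed over the 39 genes, it made up 3.59% and 3.91% of the counts with the control label and 4.24% and 4.25% with the knockout label. This sum is not the whole RNA of macrophages, and 7 of the 39 genes are also made by stromal cells. On the TPM scale, which divides by gene length and sums to 1000000 in a library, the shares were 4.08% and 4.58% against 5.09% and 5.16%. Both knockout-labelled libraries lay above both control-labelled ones on either scale, by a log2 ratio of mean shares of 0.18 for counts and 0.24 for TPM. The ratio for counts was 0.12 without control-labelled replicate 1 and 0.24 without replicate 2. No p-value is attached to this sum, and an exact two-sided permutation test of 2 libraries against 2 cannot go below p = 0.33. Because these are shares of bulk RNA, more macrophages, more RNA per macrophage and less RNA from other cells cannot be told apart. The 32 genes made mainly by blood cells alone took 2.84% and 3.18% of the counts against 3.68% and 3.68%, and their log2 ratio was 0.29.

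The tissue label was checked by marker lists. A list of 14 stromal genes, collagens, surface markers and matrix proteins, had counts for every gene, though at very unlike levels. Mean TPM ran from 0.34 for Lepr, named after its values were seen, to 602.7 for Fn1. The list summed to 0.32% and 0.30% of TPM with the control label and 0.18% in both libraries with the knockout label. By counts it held 1.19% and 1.05% against 0.68% and 0.67%. The 39 macrophage genes took 3.59% and 3.91% of counts against 4.24% and 4.25%, a smaller gap than by TPM. On both scales they were above this shorter list in every library. Within the stromal list 8 genes fell and 5 rose, where 16.8% and 13.7% of all genes tested did. The matrix proteoglycans Lum (lumican) and Dcn (decorin) fell by 7.18 and 4.85 on the log2 scale, and the more abundant Fn1 (fibronectin) and Col1a1 (a chain of type I collagen) by 1.15 and 0.62. The 5 that rose, named after their values were seen, were Thy1 (4.59), Prrx1 (1.05), Pdgfrb (0.70), Col3a1 (0.30) and Pdgfra (0.24). Another 50 genes of macrophages and monocytes summed to 0.83% and 0.80% against 0.99% and 0.99% of TPM. Markers of T cells and erythroid cells were nearly absent: Cd3e, Cd3d and Cd3g of T cells and the globin gene Hbb-bt were at 0 in every library, and the lists of T and NK cells and of erythroid cells held at most 5.71e-05% and 0.000106% of TPM. The lists of B cells, endothelial cells, megakaryocytes and mast cells, and dendritic cells each held at most 0.00214%. Of 12 neutrophil genes 5 were at 0 in every library (S100a9, Mpo, Ltf, Ngp and Retnlg), and the list held 0.00299% and 0.00331% against 0.00145% and 0.00118% of TPM. For some genes at 0 the deposited coordinates span less than the listed gene length. Examples are S100a9 (90695668 to 90695721, length 519) and Cd3e (45009566 to 45009590, length 1436), so a 0 there may not mean absence. The part of these other cells in the results below was not tested.

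**Figure D1:**
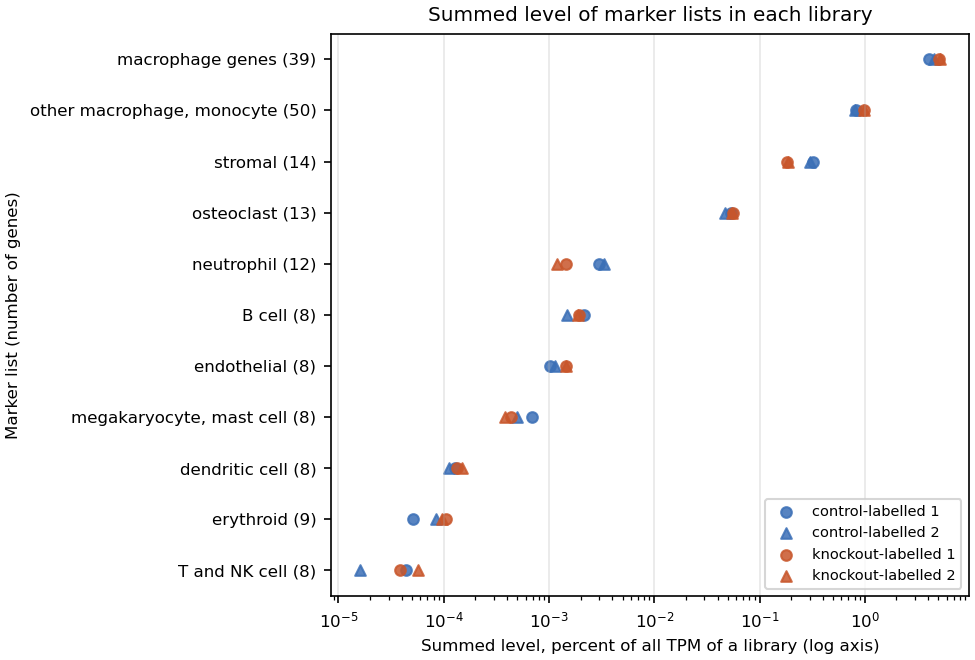
Summed level of each marker list as a percentage of all TPM of a library on a log axis, with 1 point per library (blue control-labelled, orange knockout-labelled, circles replicate 1 and triangles replicate 2) and the number of genes in each list. The 39 macrophage genes reached 4.08% to 5.16% in the 4 libraries, above every other list shown, and the stromal list 0.18% to 0.32%.

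Levels of the 39 genes spanned a wide range. Lyz2, the lysozyme of myeloid cells, had the highest mean, 19450 TPM over the 4 libraries, and was the second most abundant gene of the whole table. It was followed by Lgals3 (galectin-3, 4337 TPM) and the chains of complement C1q (C1qb 3656, C1qa 3188 and C1qc 2882 TPM). In all, 8 genes had a mean of at least 1000 TPM and 28 of at least 100 TPM. The lowest were Marco (4.25 TPM) and Cd163 (2.37 TPM), receptors of subsets of tissue macrophages, with at least 84 counts for each gene in every library. Csf1r, the receptor on which macrophages depend, had 516 TPM, and Adgre1, which encodes the F4/80 antigen, 306 TPM.

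**Figure D2:**
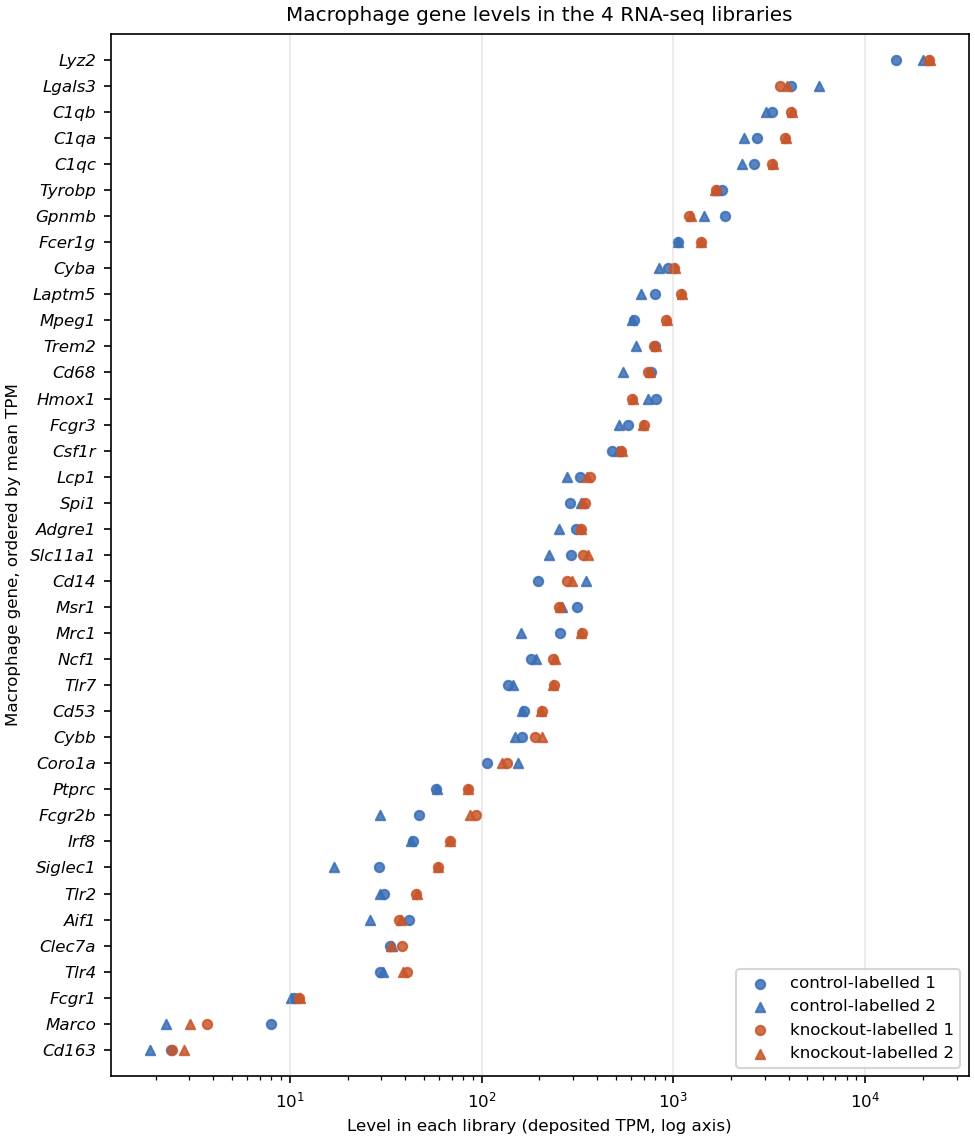
Deposited TPM of each of the 39 macrophage genes in each of the 4 RNA-seq libraries on a log axis, with genes ordered by their mean (blue control-labelled, orange knockout-labelled, circles replicate 1 and triangles replicate 2). The order runs from Cd163 with a mean of 2.37 TPM to Lyz2 with 19450 TPM, and the knockout-labelled points nearly coincide while several control-labelled pairs lie apart.

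To ask whether macrophage genes differed between genotypes, counts were scaled by TMM factors and tested across all genes. At an adjusted p under 0.05, 16 of the 39 genes were higher and 4 were lower in the knockout-labelled libraries, and 19 did not pass. Of all genes tested, 13.7% were called higher and 16.8% lower, 30.5% in all. The median log2 fold change of the 39 genes was 0.21, against −0.0038 over all genes tested, and it lay between 0.18 and 0.31 under the 13 alternative settings. The knockout-labelled libraries were both above the control-labelled ones for 23 genes and both below for 5, where 33.9% and 35.0% of all genes tested did the same. Among the genes made mainly by blood cells 15 of 32 rose and 1 fell, and among those also made by stromal cells 1 of 7 rose and 3 fell. The calls depended on which libraries entered. Without control-labelled replicate 1, 26 were higher and 10 lower, where 27.1% and 28.6% of all genes were. Without control-labelled replicate 2 the counts were 24 and 9, beside 24.1% and 25.9% of all genes. With either of the knockout-labelled replicates left out they were 5 and 0, beside 4.58% to 4.62% of all genes higher and 7.23% to 7.34% lower. The 5 genes Irf8, Fcgr2b, Siglec1, Tlr2 and Tlr7 were called higher with each of the 4 libraries left out, and none of the 4 lower genes was called in all 4 such fits. After both knockout-labelled libraries were summed to 1 sample, a choice made after seeing the data, 7 genes were higher and 0 lower (11 and 4 at an unadjusted p under 0.05, edgeR), where 4.94% and 7.59% of all genes were. DESeq2 on the 4 libraries called 14 higher and 4 lower, beside 11.5% and 13.7% of all genes.

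**Figure D3:**
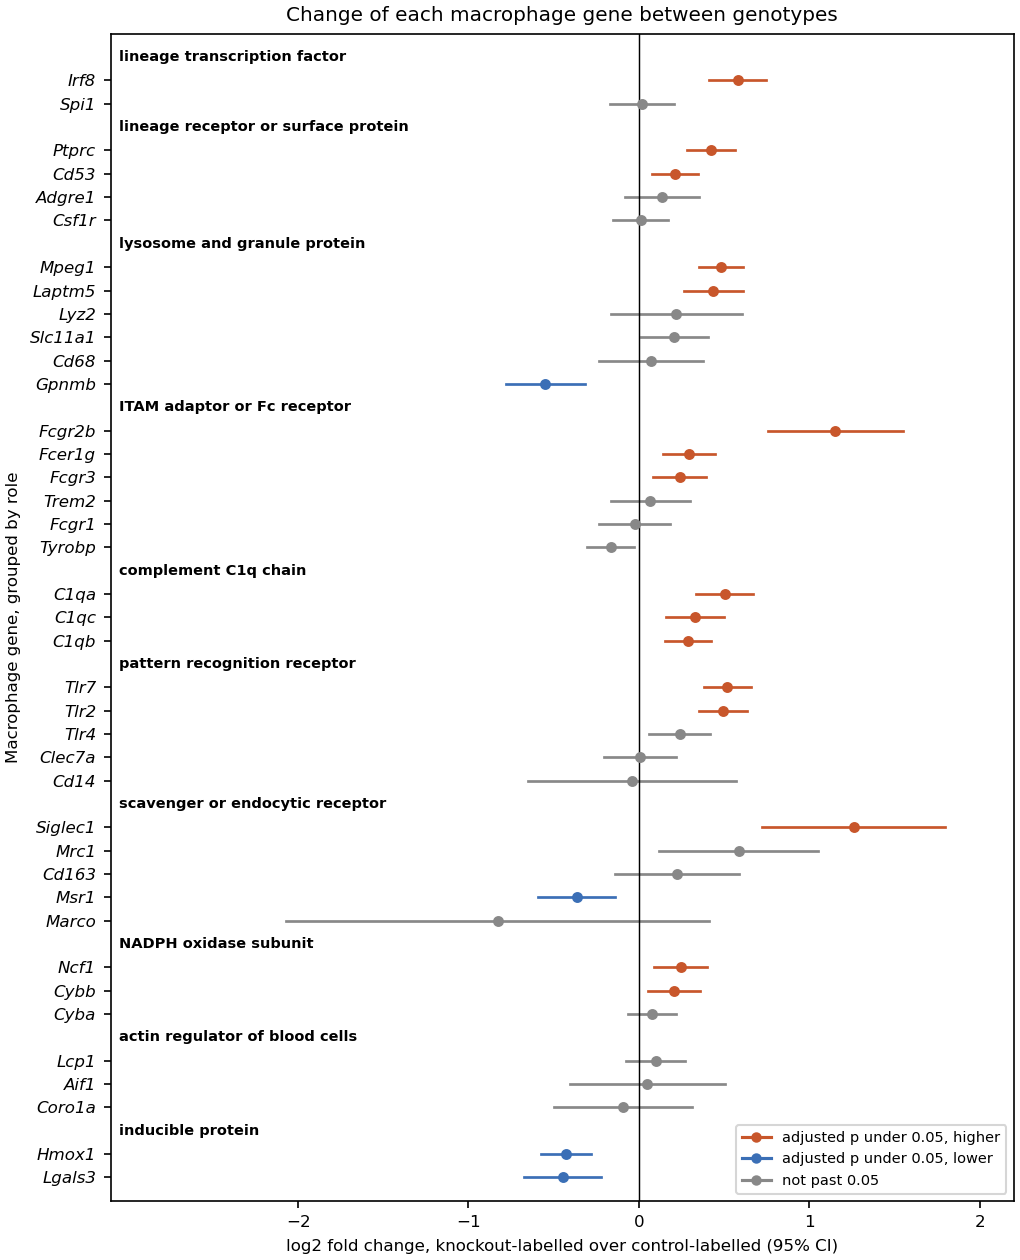
Log2 fold change of each macrophage gene, knockout-labelled over control-labelled, with its 95% confidence interval from edgeR, grouped by role (orange higher and blue lower at an adjusted p under 0.05, grey not past it). The largest rises were those of Siglec1 (1.26) and Fcgr2b (1.15), all 3 C1q chains rose, and Lgals3 and Hmox1 both fell.

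The lineage transcription factors diverged. Spi1, which encodes PU.1, measured 344.5 and 394.8 CPM with the control label and 371.9 and 376.1 CPM with the knockout label. The groups overlapped, and the log2 fold change was 0.02 with a 95% confidence interval from −0.17 to 0.20 (adjusted p = 0.892). Irf8 (chromosome 8, 120736358 to 120756694, plus strand, GRCm38), a partner of PU.1 that drives monocyte development, measured 85.3 and 77.0 CPM against 121.4 and 121.3 CPM. It rose by 0.58 on the log2 scale (standard error 0.0698, adjusted p = 0.00191), without overlap. Its change stayed between 0.51 and 0.66 under the 13 alternatives on the scale of the whole library. Scaled to other macrophage genes, as described below, it was 0.40.

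PU.1 binds a purine-rich sequence with the core GAGGAA, and the promoters of the macrophage genes were searched for that core. RefSeq promoter windows (GRCm38.p6, 250 bases before to 50 after the start) were matched by symbol for 28 of the 39 genes, in 34 windows. GAGGAA was found on either strand in 17 of the 34 windows (50.0%) and in 28.3% of 32851 windows of all genes. Windows of the same gene can overlap, and in Fcgr3 and Clec7a the same copy was counted in more than 1 window. A share by gene was not counted over all genes. The longer GAGGAAGT, which contains the first motif, was in 5.88% and 3.20% of the windows, and TATAAA, searched for contrast, in 11.8% and 13.6%. Counted by gene, 15 of the 28 held GAGGAA, of which 7 rose and 8 did not pass, and of the 13 without it 6 rose, 2 fell and 5 did not pass. The 30-base stretches below are those of the 7 genes that rose and, for contrast, of Trem2 and Cd68, the most abundant of the 8 that did not pass. Each is written along the strand that carries GAGGAA, which is in capitals, and a match is a description of letters only.
Ptprc, gene on minus strand, same strand, chr1:138175446-138175475: tgttttcctttaGAGGAAaattgagacgaa
Fcgr3, gene on minus strand, opposite strand, chr1:171059392-171059421: gaactacaaaaaGAGGAAggaaatggactc
Cd53, gene on minus strand, opposite strand, chr3:106790124-106790153: agcgagaagagtGAGGAAgtgagactgagt
Laptm5, gene on plus strand, opposite strand, chr4:130913266-130913295: cagaacaaaaaaGAGGAAgccacaggctgc
C1qb, gene on minus strand, same strand, chr4:136886213-136886242: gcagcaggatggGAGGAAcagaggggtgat
C1qc, gene on minus strand, opposite strand, chr4:136893090-136893119: gtgtgccaaaatGAGGAAgtgtctgccgtc
Cybb, gene on minus strand, opposite strand, chrX:9469298-9469327: tcttcttctgatGAGGAAatgaaaacagca
Trem2 (did not pass), gene on plus strand, opposite strand, chr17:48346349-48346378: gcgtgagggaggGAGGAAggaaaggaggct
Cd68 (did not pass), gene on minus strand, same strand, chr11:69666378-69666407: tttcttaccaatGAGGAAagggcttcccat
In Cd53 and C1qc the core is followed by GT, so that both hold the longer motif.

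Receptors and surface proteins of the lineage were split. Csf1r measured 1332 and 1473 CPM with the control label and 1406 and 1419 CPM with the knockout label, with a log2 fold change of 0.01 (95% confidence interval −0.15 to 0.17, adjusted p = 0.927). Adgre1 measured 706.8 and 590.6 against 711.2 and 714.4 CPM. Its log2 fold change of 0.14 did not pass (adjusted p = 0.304). Ptprc, the CD45 phosphatase found on all nucleated blood cells, measured 190.6 and 199.7 against 264.2 and 259.5 CPM. It rose by 0.42 (standard error 0.0591, adjusted p = 0.00333), and the groups did not overlap. Cd53, a tetraspanin of leukocytes, measured 187.4 and 190.2 against 221.0 and 217.0 CPM and rose by 0.21 (adjusted p = 0.0320), a call that DESeq2 did not make (adjusted p = 0.0501). Of these 4 genes, Ptprc and Cd53 passed, whereas Csf1r and Adgre1 did not. The difference between these pairs was not tested, and other genes do not follow it as a split of leukocyte and macrophage genes. Lcp1 and Coro1a, actin regulators of blood cells, did not pass (log2 fold changes 0.10 and −0.09), whereas Mpeg1 and all 3 C1q chains rose.

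Among proteins of lysosomes and granules, 2 genes rose, 1 fell and 3 did not pass. Mpeg1, a pore-forming protein of phagosomes, measured 1959 and 1950 CPM against 2724 and 2729 CPM. The replicates were close in both groups, and the rise was 0.48 on the log2 scale (standard error 0.0538, adjusted p = 0.00145). Laptm5, a lysosomal membrane protein of blood cells, measured 859.6 and 768.4 against 1087 and 1117 CPM and rose by 0.44 (adjusted p = 0.00609). Lyz2 measured 10980 and 15930 CPM with the control label and 15630 and 15710 CPM with the knockout label. The second control-labelled library was above both knockout-labelled ones, and the log2 fold change of 0.22 (adjusted p = 0.342) became −0.02 without control-labelled replicate 1 and 0.51 without replicate 2. Lyz2 has a near-identical copy, Lyz1, which was listed at 1.57 to 2.05 CPM, and reads may have been split between them. Without Lyz2 the remaining 38 genes held 2.50% and 2.34% of the counts against 2.65% and 2.67%. Slc11a1, a metal ion transporter of phagosomes, and Cd68, a lysosomal glycoprotein used as a macrophage stain, had log2 fold changes of 0.21 and 0.07 (adjusted p = 0.102 and 0.710), and that of Cd68 was −0.12 without control-labelled replicate 2.

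Gpnmb, a glycoprotein of lysosomes that osteoblasts also make, went the other way. It measured 3979 and 3269 CPM with the control label and 2445 and 2508 CPM with the knockout label. Both knockout-labelled values were lower, and the gene fell by 0.55 on the log2 scale (standard error 0.0966, adjusted p = 0.00799).

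Fc receptors bind the constant part of antibodies, and several of them signal through the adaptors Fcer1g and Tyrobp. The inhibitory receptor Fcgr2b (chromosome 1, 170958617 to 170976547, minus strand) measured 50.4 and 34.4 CPM against 95.8 and 93.4 CPM. It rose by 1.15 (standard error 0.164, adjusted p = 0.00358), a 2.23-fold change, although the control-labelled replicates differed by 0.55. The activating receptor Fcgr3 measured 479.4 and 442.2 against 546.9 and 540.5 CPM and rose by 0.24 (adjusted p = 0.0335). Fcgr2b and Fcgr3 share sequence, and both held fractional counts in 2 libraries, so that reads may be divided between them. Fcgr1, the high-affinity receptor, was at 18.2 to 18.9 CPM in all 4 libraries, and its log2 fold change was −0.03 (adjusted p = 0.849).

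The adaptors differed in direction. Fcer1g measured 320.4 and 345.9 CPM against 408.2 and 408.2 CPM and rose by 0.29 (standard error 0.0631, adjusted p = 0.0164). Tyrobp measured 408.5 and 423.9 against 373.0 and 369.2 CPM. Both knockout-labelled values of Tyrobp were lower, but its log2 fold change of −0.17 did not pass (adjusted p = 0.0727). Trem2, a lipid receptor that signals through Tyrobp, overlapped between groups at 526.2 and 434.0 against 498.9 and 507.8 CPM (0.07, adjusted p = 0.633).

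All 3 chains of C1q, the first component of the classical complement pathway, rose. C1qa measured 1600 and 1438 CPM with the control label and 2147 and 2159 CPM with the knockout label. C1qb measured 2046 and 1992 against 2450 and 2483 CPM. C1qc measured 1886 and 1686 against 2227 and 2254 CPM. For none of the chains did the groups overlap, and the log2 fold changes were 0.50, 0.29 and 0.33 (adjusted p = 0.00317, 0.0108 and 0.0164). Together the chains made up 0.55% and 0.50% of the counts against 0.69% and 0.70%. The genes are neighbours on chromosome 4 (GRCm38, C1qb at 136880129 to 136886187, C1qc at 136889804 to 136893065 and C1qa at 136895917 to 136898803, all on the minus strand). None of them passed in limma on log2(TPM + 0.1), where 5.64% of all genes were called higher and 6.07% lower, and with a knockout-labelled library left out none was called.

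Receptors for microbial products were led by the Toll-like receptors. Tlr7 (chromosome X, 167304929 to 167330558, minus strand), the endosomal sensor of single-stranded RNA, measured 292.9 and 283.8 CPM against 416.7 and 408.6 CPM. Tlr2 (chromosome 3, 83836272 to 83841767, minus strand), the sensor of bacterial lipoproteins, measured 65.8 and 64.0 against 90.7 and 92.2 CPM. They rose by 0.52 (standard error 0.0572, adjusted p = 0.00136) and 0.49 (standard error 0.0590, adjusted p = 0.00186), and each passed under 12 of 13 alternatives. Tlr4, the receptor of lipopolysaccharide, measured 81.3 and 91.8 against 102.1 and 102.0 CPM. Without overlap, its log2 fold change of 0.24 missed the threshold (adjusted p = 0.0545). Cd14, the coreceptor of Tlr4, measured 196.6 and 363.3 CPM with the control label and 265.4 and 279.2 CPM with the knockout label. The control-labelled pair enclosed the others, and the log2 fold change of −0.04 became −0.41 without control-labelled replicate 1 and 0.47 without replicate 2. Clec7a, the receptor of fungal β-glucan, was at 25.7 to 28.1 CPM and its log2 fold change was 0.01 (adjusted p = 0.969).

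Scavenger and endocytic receptors showed the widest spread. Siglec1 (chromosome 2, 131069220 to 131086765, minus strand), the sialic acid receptor CD169 of resident macrophages, measured 136.2 and 79.9 CPM with the control label and 258.8 and 259.5 CPM with the knockout label. It had the largest rise of the 39 genes, 1.26 on the log2 scale (standard error 0.222, adjusted p = 0.00807), with values from 0.93 to 1.70 when a library was left out. Mrc1, the mannose receptor, measured 997.7 and 629.4 against 1229 and 1211 CPM. Its log2 fold change of 0.58 did not pass (adjusted p = 0.0646), beside a difference of −0.66 between the control-labelled replicates.

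Msr1, the class A scavenger receptor for modified lipoproteins, measured 609.4 and 504.7 CPM against 430.0 and 434.6 CPM. It fell by 0.37 on the log2 scale (standard error 0.0939, adjusted p = 0.0294). Cd163, the haemoglobin receptor, was at 5.98 to 8.13 CPM (0.22, adjusted p = 0.313). Marco measured 10.2 and 2.97 against 3.84 and 3.64 CPM, and the sign of its log2 fold change (−0.83, adjusted p = 0.271) depended on 1 library, being 0.33 without control-labelled replicate 1 and −1.45 without replicate 2.

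The NADPH oxidase of phagocytes makes superoxide. Its catalytic subunit Cybb measured 557.4 and 517.9 CPM against 614.7 and 626.1 CPM and rose by 0.21 (adjusted p = 0.0491), a call that DESeq2 did not make (adjusted p = 0.0559). Ncf1, the p47 organizer, measured 336.2 and 364.3 against 409.6 and 420.6 CPM and rose by 0.25 (adjusted p = 0.0321). Cyba, the membrane partner of Cybb that many cells make, was at 347.3 and 331.7 against 355.1 and 361.8 CPM (0.08, adjusted p = 0.358). In each of the 3 genes the knockout-labelled values were above the control-labelled ones. Ncf1 overlaps Gtf2ird2 on the opposite strand and Csf1r overlaps Hmgxb3, and the RNA-seq kit does not mark strand, so their reads cannot be told apart.

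Actin regulators of blood cells did not pass. Lcp1 (L-plastin), Aif1 (the IBA1 marker) and Coro1a (coronin 1A) had log2 fold changes of 0.10, 0.05 and −0.09 (adjusted p = 0.350, 0.870 and 0.717). Coro1a was at 105.9 and 156.9 CPM under the control label, a range that enclosed the 125.8 and 120.4 CPM of the others, and it overlaps Bola2 on the opposite strand. Aif1 was at −0.21 without control-labelled replicate 2, and Coro1a at 0.21.

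The inducible proteins Lgals3 and Hmox1, which stromal cells also make, both fell. Lgals3 measured 2068 and 2499 CPM with the control label and 1659 and 1692 CPM with the knockout label. Hmox1, the haem oxygenase induced by oxidative stress, measured 823.9 and 772.5 against 591.0 and 594.4 CPM. The groups did not overlap for either gene, and the falls were 0.45 and 0.43 on the log2 scale (adjusted p = 0.0151 and 0.00346).

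Because the sum of macrophage genes itself was higher in the knockout-labelled libraries, the change of each gene was also measured relative to the macrophage lineage, on a scale chosen after the data were seen. Libraries were scaled to the summed counts of the 50 other macrophage and monocyte genes, which took 0.93% and 0.89% of the counts with the control label and 1.06% and 1.05% with the knockout label. On this scale 9 of the 39 genes were higher, 5 lower and 25 not past the threshold, where 6.95% of all genes tested were higher and 31.3% lower. All 9 were among the 16 genes above: Irf8, Ptprc, Laptm5, Mpeg1, Fcgr2b, C1qa, Tlr2, Tlr7 and Siglec1. Scaling in this way lowered the log2 fold changes of the 39 genes by nearly the same amount. That amount was close to 0.18, the log2 ratio of the summed 50 genes on TMM-scaled library sizes. The deeper falls, the order of the rises and the changes of sign given here therefore follow largely from the scale. The 4 genes that fell on the scale of the whole library fell here by 0.73 (Gpnmb), 0.63 (Lgals3), 0.61 (Hmox1) and 0.55 (Msr1). Tyrobp was the fifth (−0.35, adjusted p = 0.00626). Siglec1 (1.08) and Fcgr2b (0.97) kept the largest rises. C1qb (0.10) and C1qc (0.14) did not pass on this scale, nor did Cd53, Fcer1g, Fcgr3, Cybb and Ncf1 (0.02 to 0.11). Of the genes that did not pass on the scale of the whole library, 9 changed sign from positive to negative here (Spi1, Csf1r, Adgre1, Cd68, Trem2, Clec7a, Cyba, Lcp1 and Aif1), and none of these passed on either scale. The number higher was 17 with either control-labelled replicate left out, beside 12.6% to 14.0% of all genes, and 2 with either knockout-labelled replicate left out, beside 3.34% to 3.52%. The number lower was 13 without control-labelled replicate 1 and 14 without replicate 2, beside 46.8% and 42.5% of all genes. It was 4 with either knockout-labelled replicate left out, beside 14.7% to 15.7%.

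**Figure D4:**
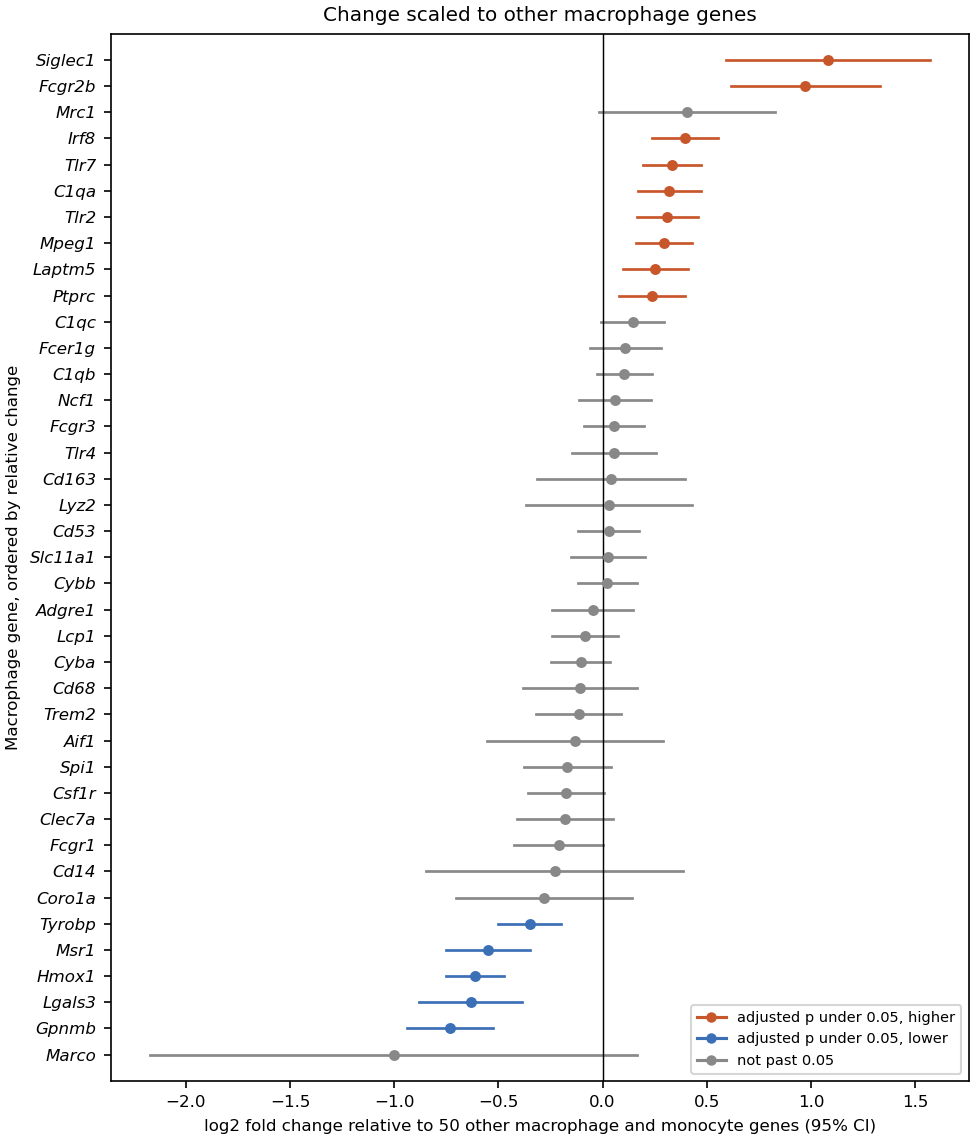
Log2 fold change of each macrophage gene after libraries were scaled to the summed counts of 50 other macrophage and monocyte genes, with its 95% confidence interval from edgeR (orange higher and blue lower at an adjusted p under 0.05, grey not past it). On this scale 9 genes were higher, led by Siglec1 (1.08) and Fcgr2b (0.97), and 5 were lower, led by Gpnmb (−0.73).

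Other genes of the lineage were counted from the same fit. Of the 50 other macrophage and monocyte genes 48 were tested. Of these, 16 were higher and 2 lower, beside 13.7% and 16.8% of all genes tested, and their median log2 fold change was 0.21. Ctss (cathepsin S), the most abundant of these, was at 1629 and 1655 against 1797 and 1790 CPM and did not pass (0.13, adjusted p = 0.127). Cx3cr1, the fractalkine receptor of monocytes and resident macrophages, rose from 6.69 and 8.03 CPM to 33.4 and 34.3 CPM, by 2.21 on the log2 scale (adjusted p = 6.3e-05). Clec4n, the receptor dectin-2, rose by 0.66 (adjusted p = 0.00207).

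Ligands by which stroma acts on macrophages moved in both directions. Of 15 such genes 13 were tested, 2 were higher and 8 lower, beside 13.7% and 16.8% of all genes tested. Those shares also stand beside the cytokine and osteoclast counts below. Csf1, the ligand of Csf1r, measured 354.0 and 295.5 CPM with the control label and 544.9 and 541.5 CPM with the knockout label and rose by 0.74 (standard error 0.0916, adjusted p = 0.00212), and Il34, the other ligand of the same receptor, rose by 0.40. Tnfsf11, the osteoclast factor RANKL, fell by 4.96 on the log2 scale, and Il6 fell by 3.41. The chemoattractants Ccl2, Ccl7, Cxcl12 and Cx3cl1 fell by 1.49, 1.71, 0.65 and 0.84. Of 15 cytokine genes of macrophages 12 were tested, 2 were higher and 1 lower. Osm (oncostatin M) and the chemokine Ccl4 rose by 1.13 and 0.33 (adjusted p = 0.0288 and 0.0418). Il1rn, the antagonist of interleukin 1, fell from 166.7 and 209.5 to 48.7 and 49.7 CPM (−1.93, adjusted p = 0.000111). Of 13 osteoclast genes 8 were tested, 2 were higher and 3 lower, with Ctsk (cathepsin K) at −0.67 and Tcirg1 (a proton pump subunit) at 0.28. Il34, Ccl4, Ccl2, Ccl7, Cxcl12 and Cx3cl1 are named here after their values were seen.

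The deposited m6A peaks were then read for the macrophage genes. A peak is a stretch of transcript where immunoprecipitated fragments exceed the input, and its summit is the base of highest coverage. Peaks were located on the mm9 genome and assigned to the gene that holds the summit. They come from cultures labelled wild type and carry no replicate error, so nothing about the knockout can be read from them. Of the 39 genes 28 (71.8%) had at least 1 peak, and 48 peaks were found in all. Among all genes tested that are in the annotation the share was 42.0%. Among genes with a mean of at least 100 TPM it was 38.6%, and for the 28 macrophage genes at that level 64.3%. Gpnmb had 4 peaks, Irf8, Csf1r, Laptm5 and Mpeg1 had 3 each, 9 genes had 2 and 14 had 1. No peak was listed on Adgre1, Cd53, Tyrobp, Fcer1g, Trem2, Mrc1, Marco, Ncf1, Coro1a, Lgals3 or Hmox1.

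Of the 48 summits 22 lay in coding sequence, 18 in the 3′ UTR, 4 in the 5′ UTR, 2 in exons of noncoding transcripts and 2 in introns, and 15 were within 200 nt of the stop codon. The authors' fold enrichment over the local background had a median of 2.85 for these peaks and 4.03 for all 10160 peaks, while the median pileup of fragments at the summit was 129 and 60. The highest fold enrichments belonged to the 5′ UTR peak of Gpnmb (7.47), a coding peak of Cd163 (7.03) and the coding peak of Irf8 in exon 2 of 9 (6.97). Of the 8 genes with a mean of at least 1000 TPM, Lgals3, Tyrobp and Fcer1g had no peak, and Gpnmb held the highest enrichment. The single peaks of Lyz2 (222 fragments, 2.01-fold) and C1qc (254 fragments, 1.86-fold) combined a large pileup with a low enrichment. A peak was found on 13 of the 16 genes that rose, 2 of the 4 that fell and 13 of the 19 that did not pass.

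**Figure D5:**
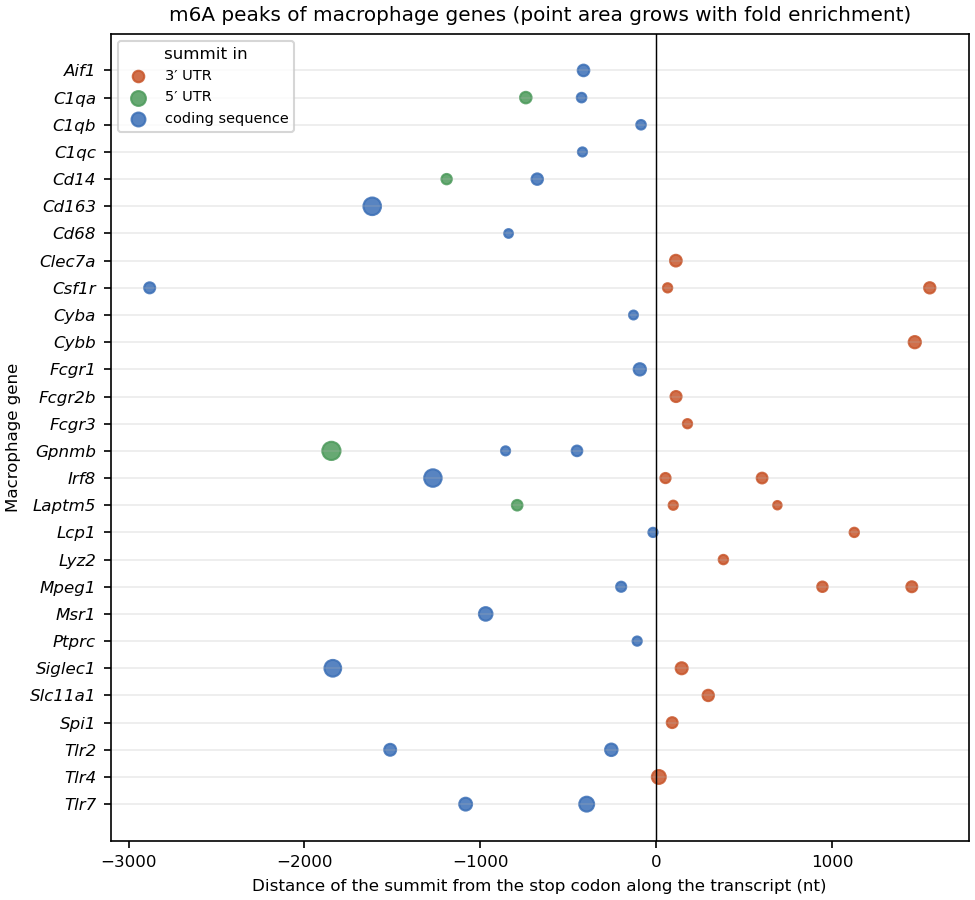
Distance of each m6A summit from the stop codon along the transcript in nucleotides, for summits on the coding transcript of 28 macrophage genes, with negative values upstream and point area growing with the authors' fold enrichment. Colours mark coding sequence (22 summits), 3′ UTR (18) and 5′ UTR (4), and 15 summits lie within 200 nt of the stop codon.

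GGAC, the sequence at which m6A is most often placed, was present on the transcript strand in 37 of the 48 peaks. The share among all deposited peaks was not counted, so this number is a description only. The sequences below show the copy nearest to the summit, in capitals within 30 bases of mm9 written 5′ to 3′ along the transcript, for genes whose RNA differed between the groups and for the peaks of highest enrichment.
Irf8, coding sequence, plus strand, chr8:123263644-123263673: gcagtcagttccgGGACtgctctgactcac
Gpnmb, 5′ UTR peak, plus strand, chr6:48986656-48986685: ctcctggtggatgGGACtggggagtcagag
Cd163, coding sequence, plus strand, chr6:124267816-124267845: gcagttctcattgGGACatggaagatgctc
Siglec1, coding sequence, minus strand, chr2:130900706-130900735: ggagcacccaccaGGACtcactcagctaca
Tlr7, coding sequence, minus strand, chrX:163743596-163743625: agactggctaccaGGACagccagttctaga
Tlr2, coding sequence, minus strand, chr3:83640530-83640559: gcaagtacgaactGGACttctcccacttca
Msr1, coding sequence, minus strand, chr8:40709537-40709566: tggaacacatgaaGGACatggaggagagaa
C1qa, coding sequence, minus strand, chr4:136452499-136452528: cagcggcccccaaGGACtgaagggcgtgaa
Mpeg1, coding sequence, plus strand, chr19:12537609-12537638: cagtcatccatggGGACagtaatggaatgt
The copies shown lie from 8 nt (Mpeg1) to 83 nt (Siglec1) from their summits. The Mpeg1 peak has 2768 bases and holds 12 copies of GGAC, and its summit lies 200 nt upstream of the stop codon. In Tlr4 the summit lay 14 nt downstream of the stop codon (4.64-fold), and in Lcp1 19 nt upstream of it (1.93-fold). The single peak of Fcgr2b, in its 3′ UTR 112 nt past the stop codon, held no GGAC. The read-through gene Gm20388 overlaps the summits of Irf8 and Cyba, and Hmgxb3 overlaps the third summit of Csf1r.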

How the data were processed

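The macrophage genes and the other marker lists were chosen with earlier results of these data known. The authors mapped RNA-seq reads with HISAT2 (2.0.4 in the submitters' processing notes, which also name TopHat and MACS2); the counter is not given in the sources used here. The authors deposited estimated counts per gene, not normalized and partly fractional (4035 to 4545 genes per library), and values headed FPKM that sum to 1000000 per library and were used as TPM. All deposited columns of per-library values were read. Entries without a gene name (89, 0.110% to 0.125% of counts) were left out.

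Expected counts were rounded, kept where filterByExpr passed them, given TMM factors, and fitted in edgeR 4.0.16 (quasi-likelihood test, two-sided, no block, Benjamini-Hochberg over all 15327 genes tested). A standard error is the size of the log2 fold change over the square root of F. CPM are TMM-scaled. The RNA-seq table is in GRCm38. Where a symbol had several identifiers, the one with the most counts was used.

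In the peak list the authors deposited the pileup signal at the summit, the fold enrichment as a ratio, and −log10 q-values (q-values on a −log10 scale); the −log10 p column was not used. It is 1 list, and whether samples were pooled is not given. Depth of the MeRIP samples is unknown. Summits were placed on GENCODE vM1 (mm9), in the order coding sequence, 3′ UTR, 5′ UTR, noncoding exon, intron. Lengths and positions, deposited with the tables, are not scaled values.

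Alternatives were the replicate block, no filter, median-of-ratios factors, library totals alone, DESeq2 1.42.0, limma 3.58.1 on log2(TPM + 0.1) and log2(TPM + 1) for genes with a mean of at least 0.5 TPM, an ordinary linear model, each library left out, a peak threshold of −log10 q of at least 10, and, chosen after seeing the data, summed knockout-labelled libraries and scaling to other macrophage genes. Every macrophage gene was named. Of each other list, the 2 genes with the most CPM and the 2 with the lowest adjusted p could be named, beside genes at 0 and neighbours. The fit was tested on simulated data. No sample was dropped or imputed in the main fit. R 4.3.3 and Python 3.11.15 were used. The level of 1 marker gene is not reported here.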

Additional observations from a re-analysis of the deposited data

How the results depend on the processing

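With the replicate number as a block, 16 macrophage genes were higher and 4 lower, as without it, and 2253 and 2628 of all 15327 genes tested. Cd53 and Cybb did not pass (adjusted p = 0.0618 and 0.0797), nor did they in DESeq2, and Tlr4 and Mrc1 did pass. Same-numbered libraries shared only a number (correlation of their deviations 0.0264 over 15327 genes). Directions of the 16 higher and 4 lower macrophage genes were kept under all 13 alternatives, but none of them passed in every one. The TPM fits tested 14473 genes and called fewer. Limma on log2(TPM + 0.1) gave 5 macrophage genes higher and 0 lower (17 and 1 at an unadjusted p under 0.05), 11 and 15 genes of the other lists, and 817 and 879 of all genes. On log2(TPM + 1) these were 11 and 0 (unadjusted 2 lower), 17 and 19, and 1208 and 1064. An ordinary linear model of log2(TPM + 1) for each gene alone gave 2 and 0 (unadjusted 12 and 1), 0 and 0 (unadjusted 25 and 21), and 47 and 52. With the knockout-labelled libraries summed, 7 and 0 (unadjusted 11 and 4), 12 and 22, and 793 and 1219 passed.

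Fits that left out 1 library leave a lone sample that is assumed to vary like the other group. They called 5 to 26 macrophage genes higher and 0 to 10 lower, 12 to 56 genes of the other lists higher, and 724 to 4255 higher and 1143 to 4495 lower of all genes. The log2 ratio of summed shares ran from 0.12 to 0.24. It was 0.24 in TPM and 0.29 for genes made mainly by blood cells, but 0.14 without Lyz2 and 0.15 on TMM-scaled library sizes. Relative to other macrophage genes, 2 to 17 were higher and 4 to 14 lower.

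Of the 19 genes that did not pass, 11 changed sign under 1 or more of the 13 alternatives on the scale of the whole library. Scaling to other macrophage genes also turned Adgre1 (−0.05), Cyba (−0.11) and Lcp1 (−0.08), 14 genes in all. With each library left out, log2 fold changes ranged from −0.0712 to 0.116 for Spi1, −0.0539 to 0.0822 for Csf1r, −0.0172 to 0.51 for Lyz2, −0.12 to 0.30 for Cd68, −0.0662 to 0.22 for Trem2, −0.41 to 0.47 for Cd14, −0.0558 to 0.0665 for Clec7a, −1.45 to 0.33 for Marco, −0.35 to 0.21 for Coro1a and −0.21 to 0.39 for Aif1. Cd14 was also at 0.0247 with the block, 0.1267 in limma on log2(TPM + 0.1) and 0.1261 in both fits on log2(TPM + 1). Fcgr1 was at 0.0037 with library totals alone, 0.1207 on log2(TPM + 0.1) and 0.1115 on log2(TPM + 1), and Coro1a at 0.0415 and 0.041 on these scales. The cause of these differences was not tested. No macrophage gene had fewer than 84 counts in a library. With a peak threshold of −log10 q of at least 10, 23 macrophage genes (59.0%) had a peak, beside 32.1% of all genes tested that are in the annotation.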
